A study of Mus musculus with 19 samples.

Results

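The genes described here belong to 6 gene families that steer growing axons and sprouting vessels: semaphorins, plexins, Eph receptors, ephrins, netrins with their Unc5 receptors, and Slits with their Robo receptors. The families were chosen with earlier results of these data known. Within them genes were taken by symbol alone, as every gene that carried a probe set with 1 gene symbol. This gave 66 of the 22180 genes tested: 20 semaphorins, 9 plexins, 13 Eph receptors, 8 ephrins, 9 netrins and Unc5 receptors, and 7 Slits and Robos. By role, 30 are receptors and 36 are ligands. Ephb2 and Ntn5 had no probe set with 1 symbol and were not analysed here.

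RNA was measured on Affymetrix mouse arrays, 1 array per sample, in 7 angiosarcomas and in 3 normal tissues with 4 samples each: aorta, quadriceps femoris muscle and sternocleidomastoid, a muscle of the neck. All animals were of a mixed C57Bl/6 and 129X1/SvJ strain. The tumors had the genotype aP2-Cre/+;DicerFlox/-: Cre recombinase driven by the aP2 (Fabp4) promoter, which is active in fat and in some endothelial cells, removes the floxed Dicer allele in the cells where it is active, and the other Dicer allele is already deleted in every cell. The aortas and muscles were wild type, so tissue and genotype change together and their effects cannot be told apart. The labels give no age, sex, batch or animal, and nothing says that arrays of a group came from separate mice, so p-values measure only the spread between these samples, which may be technical. These are bulk tissues, in which fewer cells of a type and less RNA per cell cannot be told apart.

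Guidance molecules act as paired ligands and receptors. Secreted semaphorins signal through plexins, often with a neuropilin as co-receptor, while membrane semaphorins bind plexins directly, and plexins act on small GTPases to collapse the cytoskeleton. Ephrins are anchored in the membrane and activate Eph receptor tyrosine kinases on the neighbouring cell, with signals running both ways. Netrins attract through Dcc and repel through Unc5 receptors, and Slits repel through Robo receptors. In blood vessels, ephrin-B2 marks arteries and EphB4 marks veins, and Plxnd1, Unc5b and Robo4 are receptors of endothelial cells, the cells of which angiosarcoma is a malignancy.

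The promoter sequences of 5 members are shown because the results turn on these genes: Plxnd1, Robo4, Ephb4 and Sema7a, which were high in the tumors, and Unc5c, which was high in the aortas. Each is the stretch of 250 bases before the annotated start, read 5′ to 3′ in the direction of the gene, from RefSeq on GRCm38.p6. Capitals mark matches on either strand to an ETS core (CNGGAAG), an AP-1 site (TGANTCA), a FOX site (TGTTTAC) or a GC box (GGGCGG), and marked motifs did not overlap each other in these windows.

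Plxnd1 promoter, chr6:115995006-115995255, minus strand: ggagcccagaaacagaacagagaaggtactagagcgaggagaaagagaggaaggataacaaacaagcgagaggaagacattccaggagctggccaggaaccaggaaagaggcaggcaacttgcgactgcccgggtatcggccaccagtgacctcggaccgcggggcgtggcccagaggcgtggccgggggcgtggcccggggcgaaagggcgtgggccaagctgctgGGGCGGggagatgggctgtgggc
Robo4 promoter, chr9:37401722-37401971, plus strand: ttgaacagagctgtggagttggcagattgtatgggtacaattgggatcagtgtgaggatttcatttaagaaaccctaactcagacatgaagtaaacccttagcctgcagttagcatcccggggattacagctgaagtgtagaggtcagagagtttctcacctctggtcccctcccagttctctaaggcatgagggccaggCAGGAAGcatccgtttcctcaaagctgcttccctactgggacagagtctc
Ephb4 promoter, chr5:137349859-137350108, plus strand: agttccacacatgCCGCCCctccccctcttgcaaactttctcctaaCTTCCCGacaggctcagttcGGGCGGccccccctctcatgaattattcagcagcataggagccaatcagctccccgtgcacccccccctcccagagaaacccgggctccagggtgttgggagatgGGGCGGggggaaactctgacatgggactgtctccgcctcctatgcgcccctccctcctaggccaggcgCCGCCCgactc
Sema7a promoter, chr9:57939862-57940111, plus strand: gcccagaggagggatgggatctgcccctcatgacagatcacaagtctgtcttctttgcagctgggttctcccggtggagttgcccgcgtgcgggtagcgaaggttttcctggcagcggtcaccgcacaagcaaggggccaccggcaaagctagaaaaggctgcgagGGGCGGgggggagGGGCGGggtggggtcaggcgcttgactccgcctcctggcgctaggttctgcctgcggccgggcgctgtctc
Unc5c promoter, chr3:141465314-141465563, plus strand: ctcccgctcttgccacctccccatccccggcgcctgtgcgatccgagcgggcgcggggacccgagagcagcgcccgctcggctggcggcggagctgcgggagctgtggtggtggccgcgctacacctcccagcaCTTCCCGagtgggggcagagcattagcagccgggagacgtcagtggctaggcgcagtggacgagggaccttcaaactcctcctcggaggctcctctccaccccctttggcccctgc

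A promoter entry was found for 57 of the 66 members. A GC box stood in 43 of them (75.4%), against 35.4% of 27025 genes counted in the same way over windows of the same length, a table that also holds noncoding genes. The ETS core stood in 22 members (38.6%, against 29.2% of all genes), the AP-1 site in 3 (5.3%, against 7.8%) and the FOX site in 0 (against 3.5%). Of the windows shown, Robo4, Ephb4 and Unc5c each held 1 ETS core, Ephb4 held 4 GC boxes, Sema7a held 2 and Plxnd1 held 1. A match describes letters in the window and is no evidence of binding.

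**Figure D1:**
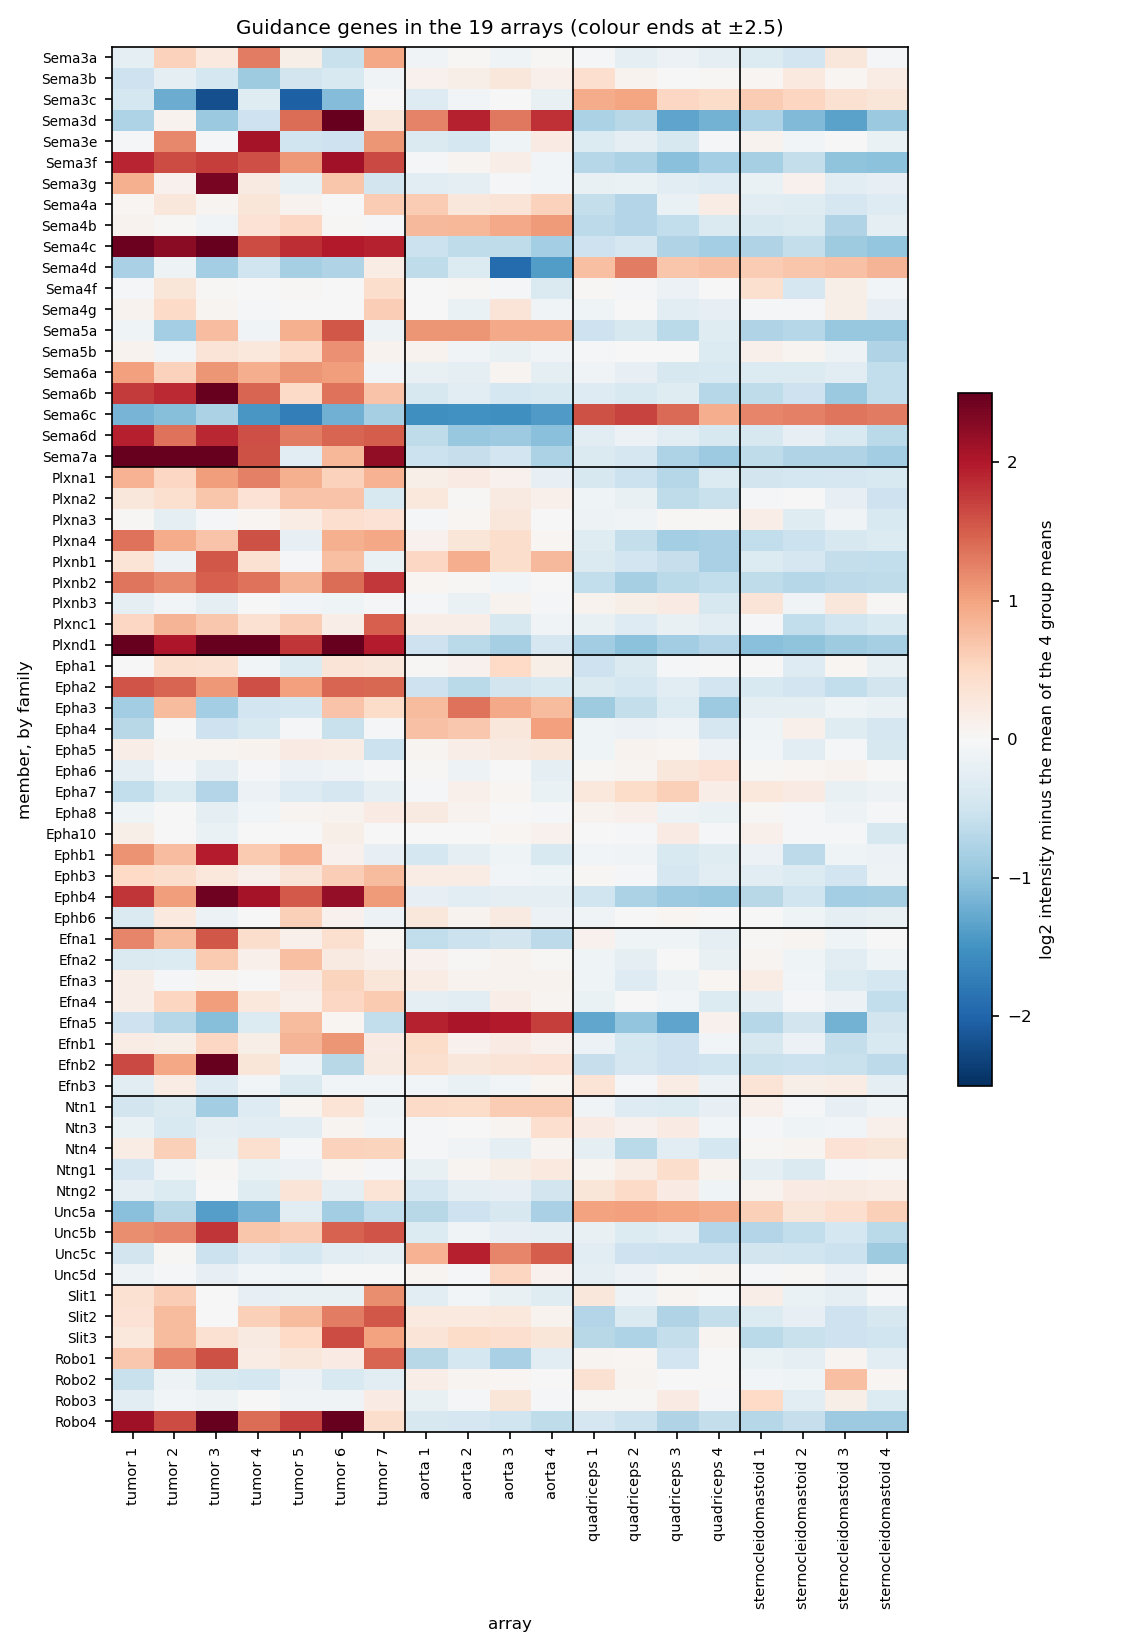
Log2 intensity of each of the 66 members (rows, by family) in each of the 19 arrays (columns, by tissue), as the difference from the mean of the 4 group means; red is above and blue below that mean, and the colour ends at 2.5 either way. Plxnd1, Sema4c and Sema6d are red in all 7 tumors, Efna5 and Unc5c in the 4 aortas, and Sema6c and Unc5a in the 8 muscles.

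The endothelial marker list, 12 genes such as Pecam1 and Cdh5, was high in the tumors: its mean level ran from 10.05 to 11.01 over the tumors, 8.59 to 8.72 over the aortas, 7.83 to 8.08 over the quadriceps and 7.88 to 8.27 over the sternocleidomastoid muscles, on the log2 scale. All 12 of its genes rose in the tumors against both tissues, with median differences of 1.81 against aorta and 2.45 against muscle. Skeletal muscle markers matched the labels of both muscles, at 12.39 to 12.58. They ran from 5.11 to 10.44 among the tumors, with 4 tumors (1, 2, 4 and 7) at 8.78 or above. The aortas also carried heart muscle markers (9.80 to 10.50, against 5.59 to 6.10 in tumors) and brown adipocyte markers (10.55 to 11.18, against 4.89 to 8.22 in tumors). The brown adipocyte list ran from 8.15 to 9.55 in the sternocleidomastoid muscles and from 6.47 to 7.97 in the quadriceps. The general adipocyte list was at 6.02 to 10.83 in the tumors, with tumors 5 and 6 at 10.83 and 10.22. It was at 10.22 to 10.42 in the aortas, 8.16 to 8.85 in the sternocleidomastoid muscles and 8.09 to 10.15 in the quadriceps, with quadriceps 4 highest. What part these cell types had in the differences below was not tested. The targeted gene itself, Dicer1, was at 8.17 to 8.80 in the tumors, 8.02 to 8.40 in the aortas, 8.62 to 8.91 in the quadriceps and 8.28 to 8.52 in the sternocleidomastoid muscles, so the tumors overlapped each normal tissue, and they passed against neither aorta (0.29, adjusted p = 0.0714) nor muscle (-0.06, adjusted p = 0.629). The quadriceps lay above all aortas and all sternocleidomastoid muscles, and the aortas were lower than muscle (-0.36, adjusted p = 0.0274). No source used here says whether its probes lie in the deleted part, so this level does not check the genotype.

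Against aorta, 21 of the 66 members rose in the tumors and 12 fell. The background was 18.6% of all 22180 genes higher and 17.5% lower, and the members stood at 31.8% and 18.2%. A member was counted where limma's adjusted p, by Benjamini-Hochberg over all genes, was under 0.05. The median difference was 0.23 on the log2 scale over the members and -0.02 over all genes. Plexins were the family with the highest median difference, 0.67, with 5 of 9 higher and none lower. Among the semaphorins 6 of 20 rose and 3 fell, among the Eph receptors 4 of 13 rose and 3 fell, among the ephrins 2 of 8 rose and 1 fell, among the Slits and Robos 3 of 7 rose and 1 fell, and among the netrins and Unc5 receptors 1 of 9 rose and 4 fell. In 15 members every tumor lay above every aorta, and in 7 every tumor lay below, where the background shares were 12.2% and 11.5%.

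Against muscle, taken as the mean of both muscle groups, 36 members rose and 9 fell, where the background was 25.3% of all genes higher and 25.7% lower. The members stood at 54.5% and 13.6%, with a median difference of 0.48 against -0.04 for all genes. Among the semaphorins 13 rose and 4 fell, among the plexins 7 rose, among the Eph receptors 5 rose and 2 fell, among the ephrins 5 rose, among the Slits and Robos 4 rose and 1 fell, and among the netrins and Unc5 receptors 2 rose and 2 fell. In 23 members all tumors lay above all 8 muscles, and in 7 all lay below, with background shares of 14.6% and 12.7%. Both comparisons share the same tumors. Centring the arrays on 14 housekeeping genes moved the median of all genes by -0.18 against aorta and by -0.19 against muscle, and the members then split into 17 higher and 17 lower against aorta and 30 higher and 16 lower against muscle. Plxna4, Ephb3, Efna4 and Slit2 were then no longer called against aorta, and Sema3g, Sema4g, Sema5b, Epha1, Efna3 and Ntn4 no longer against muscle. The shares of all genes called were not counted under this centring, so those splits have no background to stand beside. Raising values to the lowest array median, 5.35, ended calls of the dim members Epha1, Epha6, Epha7, Robo2, Sema4g and Unc5d.

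**Figure D2:**
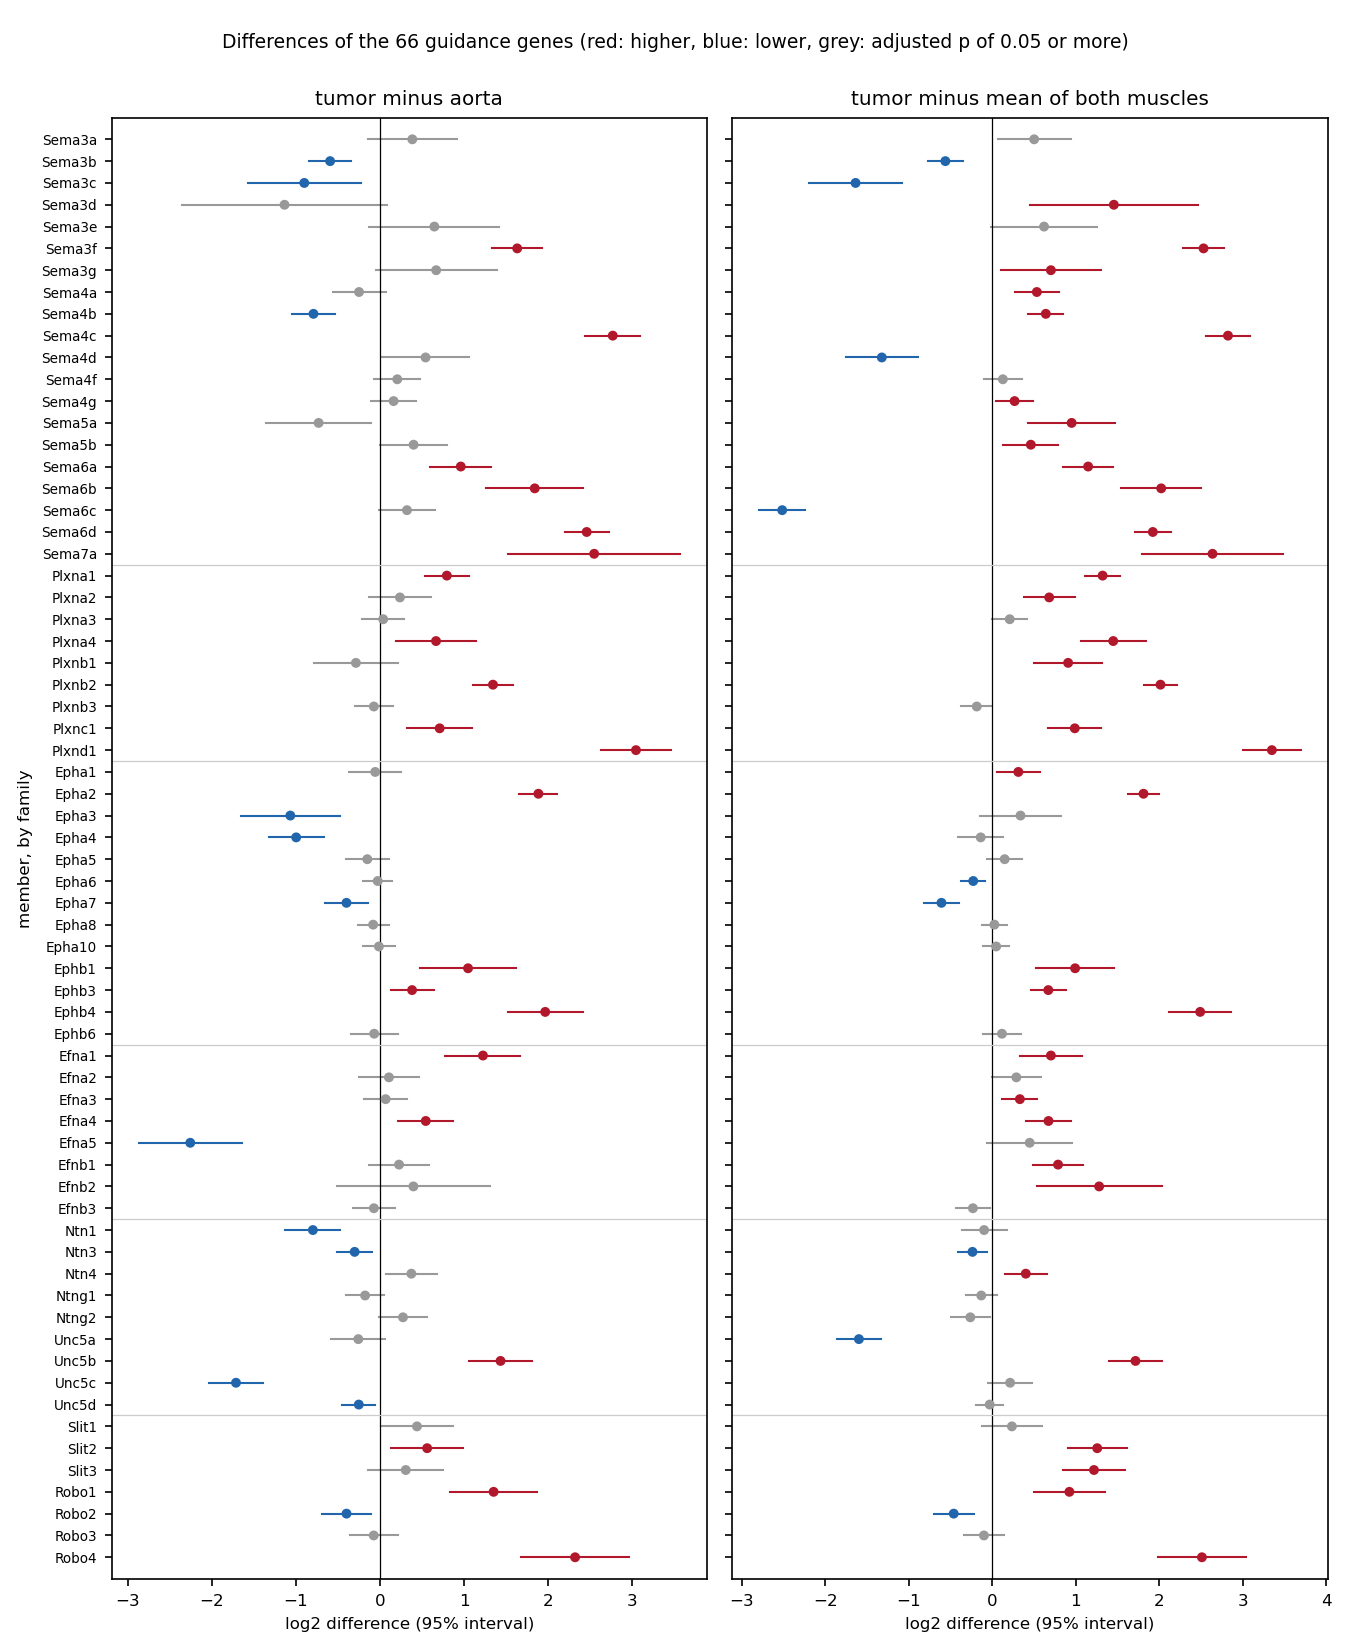
Log2 difference of each of the 66 members, tumor minus aorta on the left and tumor minus the mean of both muscles on the right, with 95% intervals from limma; red points are higher and blue points lower at an adjusted p under 0.05, and grey points did not pass. Plxnd1 lies farthest to the right in both panels (3.05 and 3.35), Efna5 farthest to the left against aorta (-2.26) and Sema6c against muscle (-2.51).

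Among the secreted semaphorins, Sema3f, which repels through neuropilin-2, rose against both tissues. It measured 8.68 at the lowest, 9.26 at the median and 9.71 at the highest of the tumors, 7.58, 7.67, 7.78 and 7.54 in the aortas, 6.89, 6.81, 6.56 and 6.76 in the quadriceps and 6.77, 7.0, 6.61 and 6.58 in the sternocleidomastoid muscles. Every tumor lay above every normal sample, and the aortas lay above the muscles. The difference from aorta was 1.63 ± 0.14 (SE) on the log2 scale, a 3.1-fold difference with an adjusted p of 4.28e-08, and that from muscle was 2.53 ± 0.12 (5.77-fold, adjusted p = 1.34e-12).

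Sema3a, Sema3e and Sema3g varied more among the tumors than among the normal samples. Sema3a, a repellent that acts through neuropilin-1, measured 4.82 at the lowest, 5.61 at the median and 6.65 at the highest of the tumors, 5.27, 5.39, 5.27 and 5.39 in the aortas, 5.32, 5.15, 5.23 and 5.13 in the quadriceps and 5.02, 4.90, 5.65 and 5.31 in the sternocleidomastoid muscles. The tumors spanned the normal values, and neither difference passed (0.38 against aorta, adjusted p = 0.265; 0.50 against muscle, adjusted p = 0.0528). Without tumor 4 the difference from aorta was 0.23. Against muscle it passed in 6 alternatives, among them without tumor 1 (0.60, adjusted p = 0.0238), tumor 6 (0.65, adjusted p = 0.00656) or sternocleidomastoid muscle 3 (0.57, adjusted p = 0.0337). Sema3e, the ligand that Plxnd1 binds without a neuropilin, was at 4.89, 6.12, 4.86, 6.99, 4.42, 4.40 and 6.02 in tumors 1 to 7, while the 12 normal samples ran from 4.48 to 5.11. Tumors 2, 4 and 7 stood above all normal samples and the other 4 did not. All normal samples and tumors 1, 3, 5 and 6 were under 5.35, the lowest array median, where the signal is dim. The group difference of 0.65 against aorta had an adjusted p of 0.192, and that of 0.62 against muscle had 0.0988. Without tumor 4 these were 0.38 and 0.35. Against muscle the rise passed without tumor 5 (0.78, adjusted p = 0.035) or tumor 6 (0.79, adjusted p = 0.0339). With tumors 1 to 4 alone it passed in both comparisons (0.98 and 0.95, adjusted p = 0.0294 and 0.0119).

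Sema3g, known from arterial endothelium, was at 7.67, 6.88, 9.14, 6.99, 6.59, 7.46 and 6.31 in tumors 1 to 7, against 6.51, 6.53, 6.75 and 6.69 in the aortas, 6.58, 6.61, 6.5 and 6.45 in the quadriceps and 6.61, 6.88, 6.5 and 6.58 in the sternocleidomastoid muscles. Tumor 3 stood highest and tumor 7 lowest of all samples. The difference from muscle, 0.70 ± 0.28, was just past the threshold (adjusted p = 0.0458). It was lost in 19 of the alternatives tried, and without tumor 3 it was 0.39 (adjusted p = 0.0515). Without any 1 of tumors 1 and 6, the 4 quadriceps or sternocleidomastoid muscles 1, 3 and 4, the adjusted p was between 0.0596 and 0.0881. Against aorta the difference was 0.67 (adjusted p = 0.145). Without tumor 3 that was 0.36.

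Sema3d and Sema3c ran the other way in part. Sema3d, a secreted semaphorin of vessel patterning, was at 5.29, 6.15, 5.13, 5.55, 7.45, 9.62 and 6.35 in tumors 1 to 7, 7.31, 7.99, 7.38 and 7.89 in the aortas, 5.27, 5.37, 4.75 and 4.88 in the quadriceps and 5.30, 4.95, 4.73 and 5.14 in the sternocleidomastoid muscles. Tumor 6 exceeded all aortas, and the other tumors lay among or below them. The difference from aorta did not pass (-1.14, adjusted p = 0.144), but without tumor 6 it was -1.66 (adjusted p = 0.000595). The aortas exceeded the muscles by 2.59 ± 0.57 (6.03-fold, adjusted p = 0.00136). The tumors rose by 1.46 ± 0.48 against muscle (adjusted p = 0.016), a call lost with values raised to the lowest array median (adjusted p = 0.0729) and against the quadriceps alone (adjusted p = 0.0518). Without tumor 6 it was 0.94 (adjusted p = 0.00853). Sema3c, which signals through neuropilins and Plxnd1, fell by 1.64 against muscle (adjusted p = 2.97e-05), with 6.22 at the lowest, 7.34 at the median and 8.41 at the highest of the tumors and 8.71 to 9.41 in the muscles.

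Among the membrane-bound semaphorins, Sema4c, a ligand of Plxnb2, rose in every tumor. It measured 9.23 at the lowest, 9.58 at the median and 10.22 at the highest of the tumors, 7.06, 6.96, 6.95 and 6.74 in the aortas, 7.08, 7.18, 6.84 and 6.74 in the quadriceps and 6.83, 7.01, 6.71 and 6.62 in the sternocleidomastoid muscles. The lowest tumor stood above the highest normal sample. The differences were 2.77 ± 0.15 against aorta (6.82-fold, adjusted p = 3.21e-10) and 2.82 ± 0.13 against muscle (7.07-fold, adjusted p = 1.15e-12).

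Sema6d, which binds Plxna1, measured 9.83 at the lowest, 10.06 at the median and 10.49 at the highest of the tumors, 7.91, 7.60, 7.65 and 7.5 in the aortas, 8.27, 8.40, 8.26 and 8.16 in the quadriceps and 8.16, 8.34, 8.17 and 7.87 in the sternocleidomastoid muscles. All tumors exceeded all normal samples, by 2.46 ± 0.13 against aorta (5.5-fold, adjusted p = 1.07e-10) and 1.92 ± 0.10 against muscle (adjusted p = 1.14e-11). Its relatives Sema6a and Sema6b also rose against both tissues. Sema6b was 1.84 and 2.02 higher than aorta and muscle, with tumors at 7.05 to 9.24 and normal samples at 5.63 to 6.29. Sema6a was 0.96 and 1.15 higher.

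Sema7a, which is anchored by a lipid and binds Plxnc1 and integrins, had the widest spread of the strong rises. It was at 10.94, 10.72, 11.53, 9.54, 7.69, 8.78 and 10.18 in tumors 1 to 7, 7.43, 7.38, 7.48 and 7.16 in the aortas, 7.59, 7.54, 7.19 and 7.04 in the quadriceps and 7.33, 7.20, 7.21 and 7.09 in the sternocleidomastoid muscles. Tumor 3 was highest, and tumor 5 only just cleared the normal samples. The differences were 2.55 ± 0.49 against aorta (5.85-fold, adjusted p = 0.000346) and 2.64 ± 0.40 against muscle (adjusted p = 1.46e-05). With tumors 5 to 7 alone they were 1.52 and 1.61.

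The membrane semaphorins that fell differed by tissue. Sema6c measured 5.53 at the lowest, 6.10 at the median and 6.47 at the highest of the tumors, 5.74, 5.76, 5.73 and 5.85 in the aortas, 8.86, 8.96, 8.68 and 8.18 in the quadriceps and 8.49, 8.54, 8.60 and 8.56 in the sternocleidomastoid muscles. The muscles stood apart from tumors and aortas alike: tumors were lower than muscle by 2.51 (adjusted p = 6.78e-12) and aortas by 2.84 (adjusted p = 4.68e-11). Sema4d, the ligand of Plxnb1, was also lower in tumors than in muscle (-1.32, adjusted p = 1.82e-05), with tumors at 6.27 to 7.31 and muscles at 7.75 to 8.40. The skeletal muscle marker list fell with both, by a median of 4.57 against muscle; its part was not tested. Sema4b, at 7.58 to 7.83 in the aortas, fell in the tumors by 0.79 against aorta (adjusted p = 3.51e-05) and rose by 0.64 against muscle (adjusted p = 1.9e-05).

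The remaining semaphorins changed little or did not pass against aorta. Sema3b was 0.59 lower than aorta and 0.56 lower than muscle, past the threshold in both. Sema4a, Sema4g, Sema5a and Sema5b passed against muscle but not against aorta, at 0.53, 0.27, 0.95 and 0.46. Sema5a had its highest group mean in the aortas, and its difference from them, -0.73 (adjusted p = 0.0649), passed as lower in 7 alternatives, among them without tumor 3, 5 or 6 (adjusted p = 0.0473, 0.0357 and 0.00389). The call of Sema5b was lost in 4, housekeeping centring (0.27, adjusted p = 0.169), quantile normalization, tumors 1 to 4 and quadriceps alone. Sema4g was under 5.35, the lowest array median, in every group mean, and its call was lost in 15 of the alternatives, with adjusted p of 0.0535 to 0.101 without tumor 2, tumor 7 or single muscles of either kind. Sema4f did not pass in either comparison. Against aorta, the call of Sema3c (-0.90, adjusted p = 0.0341) was lost without any 1 of tumors 2, 3 and 5 or of the 4 aortas (0.0504 to 0.0847).

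Plxnd1, the endothelial receptor for Sema3e, had the largest difference of all 66 members against both tissues. It measured 10.88 at the lowest, 11.69 at the median and 12.14 at the highest of the tumors, 8.58, 8.43, 8.28 and 8.68 in the aortas, 8.23, 8.08, 8.23 and 8.37 in the quadriceps and 8.06, 8.10, 8.21 and 8.28 in the sternocleidomastoid muscles. Every tumor lay at least 2 log2 units above every normal sample. The difference was 3.05 ± 0.20 against aorta (8.27-fold, adjusted p = 1.81e-09) and 3.35 ± 0.16 against muscle (10.2-fold, adjusted p = 3.28e-12). Both exceeded the median rise of the endothelial markers, 1.81 and 2.45, and those markers individually ran from 1.47 to 2.84 and from 2.03 to 3.20.

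Plxnb2, the receptor of Sema4c, measured 8.79 at the lowest, 9.30 at the median and 9.70 at the highest of the tumors, 7.99, 7.96, 7.87 and 7.93 in the aortas, 7.32, 7.11, 7.26 and 7.32 in the quadriceps and 7.30, 7.23, 7.29 and 7.29 in the sternocleidomastoid muscles. The tumors stood above the aortas and the aortas above the muscles, without overlap. The rise was 1.34 ± 0.12 against aorta (2.54-fold, adjusted p = 3.99e-08) and 2.01 ± 0.10 against muscle (4.04-fold). Plxna1, a partner of neuropilins and Sema6d, kept the same order of tissues: 9.18 to 9.93 in tumors, 8.46 to 8.88 in aortas and 7.96 to 8.33 in muscles. It rose by 0.80 against aorta (adjusted p = 4.13e-05) and 1.32 relative to muscle (adjusted p = 1.68e-09). A second, dimmer Plxna1 probe set gave 0.27 and 0.48.

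Plxna4 measured 6.70 at the lowest, 7.82 at the median and 8.49 at the highest of the tumors, 7.02, 7.19, 7.34 and 6.94 in the aortas, 6.6, 6.30, 6.04 and 6.09 in the quadriceps and 6.28, 6.36, 6.49 and 6.56 in the sternocleidomastoid muscles. Tumor 5 lay below the aortas. It rose by 1.45 against muscle (adjusted p = 1.69e-06) and by 0.67 against aorta (adjusted p = 0.0256). The latter call was lost without tumor 1, aorta 1 or aorta 4 (adjusted p = 0.0517, 0.067 and 0.0774). Plxnc1, the receptor of Sema7a, rose by 0.71 against aorta (adjusted p = 0.00468) and 0.99 relative to muscle (adjusted p = 1.62e-05), with tumors at 6.23 to 7.55, aortas at 5.65 to 6.22 and muscles at 5.43 to 6.00. With aortas 2 and 4 alone, the 2 lower in skeletal muscle markers, its call against aorta was lost (0.63, adjusted p = 0.058).

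Plxnb1, the receptor of Sema4d, had its highest group mean in the aortas. It measured 5.45 at the lowest, 5.95 at the median and 7.15 at the highest of the tumors, 6.12, 6.51, 6.06 and 6.42 in the aortas, 5.24, 5.13, 5.03 and 4.80 in the quadriceps and 5.26, 5.19, 5.01 and 5.0 in the sternocleidomastoid muscles. Aortas exceeded muscles by 1.19 (adjusted p = 0.00044), a value of 0.61 when its 2 probe sets were averaged, the second of which was dim in all tissues. Tumors exceeded muscles by 0.91 (adjusted p = 0.000604) and by 0.48 over the mean of its probe sets (adjusted p = 0.00215). Against aorta they did not pass, except without tumor 3 (-0.48, adjusted p = 0.0253). Plxna2 passed only against muscle (0.68), and Plxna3 and Plxnb3 passed in neither comparison. Without tumor 7, Plxna2 also passed against aorta (0.37, adjusted p = 0.0371). Against muscle, Plxna3 passed as higher without tumor 2 or sternocleidomastoid muscle 1 (adjusted p = 0.0275 and 0.0289). Plxnb3, dim in every group mean, passed as lower without quadriceps 4 or sternocleidomastoid muscle 2 (adjusted p = 0.00815 and 0.048).

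Among the Eph receptors, Ephb4, the vein receptor, rose most. It measured 9.06 at the lowest, 9.82 at the median and 10.46 at the highest of the tumors, 7.82, 7.75, 7.80 and 7.78 in the aortas, 7.52, 7.22, 7.11 and 7.08 in the quadriceps and 7.32, 7.52, 7.17 and 7.19 in the sternocleidomastoid muscles. Every tumor lay above every normal sample, and the aortas lay close together. The differences were 1.97 ± 0.21 against aorta (3.91-fold, adjusted p = 6.46e-07) and 2.49 ± 0.18 against muscle (5.61-fold, adjusted p = 4.64e-10).

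Epha2, a receptor induced in sprouting endothelium and in many tumor cells, measured 7.21 at the lowest, 7.64 at the median and 7.81 at the highest of the tumors, 5.67, 5.52, 5.73 and 5.80 in the aortas, 5.82, 5.75, 5.93 and 5.72 in the quadriceps and 5.81, 5.72, 5.57 and 5.73 in the sternocleidomastoid muscles. The 12 normal samples lay together, and all tumors lay above them. The differences were nearly equal, 1.89 ± 0.11 against aorta (3.7-fold, adjusted p = 4.3e-10) and 1.81 ± 0.09 against muscle (3.51-fold, adjusted p = 3.48e-12).

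Ephb1 was at 7.23, 6.88, 8.07, 6.76, 6.97, 6.20 and 5.91 in tumors 1 to 7, 5.66, 5.87, 6.00 and 5.72 in the aortas, 6.03, 6.02, 5.73 and 5.80 in the quadriceps and 5.96, 5.45, 6.00 and 5.96 in the sternocleidomastoid muscles. Tumor 3 was highest, and tumor 7 lay among the normal samples. It rose by 1.05 against aorta (adjusted p = 0.00452) and by 0.99 relative to muscle (adjusted p = 0.000904), and with tumors 5 to 7 alone by 0.49 against muscle. With those 3 tumors the difference from aorta was 0.55 and no longer passed (adjusted p = 0.0587). Its second probe set gave 0.28 against aorta. Ephb3 rose by 0.67 against muscle, and by 0.38 against aorta, a call lost without aorta 3 or aorta 4 (adjusted p = 0.0656 and 0.074).

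Epha3 and Epha4 had their highest group mean in the aortas. Epha3, a receptor of ephrin-A5, measured 5.29 at the lowest, 5.70 at the median and 6.94 at the highest of the tumors, 6.94, 7.5, 7.10 and 6.94 in the aortas, 5.26, 5.55, 5.81 and 5.25 in the quadriceps and 5.91, 5.91, 6.04 and 5.99 in the sternocleidomastoid muscles. Tumors 2 and 6 came near or level with the lowest aortas, and the others lay below. It fell by 1.07 against aorta (adjusted p = 0.00544), and aortas exceeded muscles by 1.41 (adjusted p = 0.000495).

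Epha4, which binds ephrins of both classes, measured 5.46 at the lowest, 5.76 at the median and 6.15 at the highest of the tumors, 6.87, 6.83, 6.42 and 7.17 in the aortas, 6.05, 6.01, 6.05 and 5.72 in the quadriceps and 6.05, 6.26, 5.85 and 5.73 in the sternocleidomastoid muscles. Every aorta lay above every other sample. It fell by 1.0 in tumors (adjusted p = 4.18e-05), and aortas exceeded muscles by 0.86 (adjusted p = 0.000173). Heart muscle and brown adipocyte markers were high in the same aortas, and their part was not tested.

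The other Eph receptors were dim or near level. Epha7 fell against aorta (-0.40) and against muscle (-0.61); without aorta 2 the first call was lost (adjusted p = 0.0545). Epha1, Epha5 and Epha6 were under the lowest array median in every group mean. Of these, Epha6 was lower (-0.23) and Epha1 higher (0.31) against muscle, and the call of Epha1 was lost in 13 alternatives, with adjusted p of 0.0632 to 0.0841 without single tumors or muscles. Epha5, Epha8, Epha10 and Ephb6 passed in neither comparison. Without tumor 7, Epha5 passed as higher against muscle (0.25, adjusted p = 0.00757).

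Among the ephrins, Efna1, the ligand of Epha2, measured 7.5 at the lowest, 7.89 at the median and 9.0 at the highest of the tumors, 6.83, 6.91, 6.98 and 6.78 in the aortas, 7.55, 7.34, 7.33 and 7.19 in the quadriceps and 7.47, 7.52, 7.34 and 7.44 in the sternocleidomastoid muscles. All tumors stood above all aortas, and tumors 5 and 7 lay near the highest muscles. It rose by 1.23 ± 0.21 against aorta (2.34-fold, adjusted p = 0.000135) and by 0.70 against muscle (adjusted p = 0.00229). With tumors 5 to 7 alone these were 0.76 and 0.24, and the second was no longer called (adjusted p = 0.0557).

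Efnb2, the arterial ligand of Ephb4, divided the tumors. It was at 8.39, 7.71, 9.62, 7.05, 6.62, 6.05 and 6.97 in tumors 1 to 7, 7.15, 7.04, 7.07 and 7.11 in the aortas, 6.18, 6.33, 6.24 and 6.24 in the quadriceps and 6.19, 6.21, 6.20 and 6.09 in the sternocleidomastoid muscles. Tumors 1, 2 and 3 exceeded every normal sample, tumor 4 lay among the aortas, and tumors 5, 6 and 7 lay below them. The difference was 0.40 ± 0.43 against aorta (95% interval -0.51 to 1.30, adjusted p = 0.527) and 1.28 ± 0.36 against muscle (adjusted p = 0.00529). Tumors 1 to 4 carry title codes before those of the normal tissues and tumors 5 to 7 after them; the labels name no batch. Without tumor 3 the difference from aorta was 0.04, without tumor 1 it was 0.25, and without tumor 6 it was 0.64. Tumors 1 to 4 alone were 1.10 above aorta (adjusted p = 0.0163), and tumors 5 to 7 alone were below it (-0.54, adjusted p = 0.0128) and no longer passed against muscle (0.34, adjusted p = 0.0512). The mitosis markers also differed along this line, at 8.49 to 8.80 in tumors 1 to 4 and 7.34 to 7.82 in tumors 5 to 7, and neither split was tested against the other tumors.

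Efna5, a ligand of Epha3 and Epha4, had the largest fall against aorta. It measured 5.78 at the lowest, 6.33 at the median and 7.64 at the highest of the tumors, 8.76, 8.89, 8.82 and 8.58 in the aortas, 5.55, 5.86, 5.53 and 6.94 in the quadriceps and 6.13, 6.38, 5.65 and 6.38 in the sternocleidomastoid muscles. The aortas lay above all other samples, and tumor 5 was the highest of the tumors. It fell by 2.26 in tumors against aorta (SE 0.29, 4.78-fold, adjusted p = 5.59e-06), and aortas exceeded muscles by 2.71 ± 0.29 (6.53-fold, adjusted p = 4.44e-07). Against muscle the tumors did not pass (0.45, adjusted p = 0.134). Without quadriceps 4 it passed (0.61, adjusted p = 0.0242), and without tumor 5 it was 0.26.

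Efnb1 measured 7.62 at the lowest, 7.68 at the median and 8.57 at the highest of the tumors, 7.94, 7.59, 7.68 and 7.59 in the aortas, 7.32, 7.04, 6.96 and 7.41 in the quadriceps and 7.08, 7.34, 6.88 and 7.10 in the sternocleidomastoid muscles. It rose by 0.79 against muscle (adjusted p = 8.73e-05) and did not pass against aorta (0.23, adjusted p = 0.335). Aortas exceeded muscles by 0.56 (adjusted p = 0.0131, and 0.0606 without aorta 1). Efna4 rose by 0.54 against aorta (adjusted p = 0.00972) and 0.67 relative to muscle (adjusted p = 0.000193), with tumors at 5.41 to 6.34, aortas at 5.02 to 5.47 and muscles at 4.68 to 5.31. Efna3 passed only against muscle (0.33), and Efna2 and Efnb3 in neither. Against muscle, Efna2 (0.29, adjusted p = 0.0946) passed without tumor 1 or tumor 2 (adjusted p = 0.0226 and 0.0238). Efnb3 (-0.23, adjusted p = 0.0583) passed as lower without tumor 2, quadriceps 4 or sternocleidomastoid muscle 4 (adjusted p = 0.0181, 0.0322 and 0.0156).

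Ntn1, the founding netrin, was highest in the aortas. It measured 6.31 at the lowest, 6.85 at the median and 7.52 at the highest of the tumors, 7.67, 7.64, 7.81 and 7.82 in the aortas, 7.09, 6.85, 6.83 and 6.97 in the quadriceps and 7.31, 7.15, 6.98 and 7.08 in the sternocleidomastoid muscles. All tumors lay below all aortas and spanned the muscles. It fell by 0.80 against aorta (adjusted p = 0.000433) (-0.46 with tumors 5 to 7 alone); against muscle it did not pass (-0.10, adjusted p = 0.56). Aortas exceeded muscles by 0.70 (adjusted p = 0.00127).

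Ntn4, a netrin of basement membranes, measured 6.33 at the lowest, 6.91 at the median and 7.10 at the highest of the tumors, 6.47, 6.42, 6.28 and 6.58 in the aortas, 6.28, 5.83, 6.26 and 6.07 in the quadriceps and 6.55, 6.58, 6.88 and 6.82 in the sternocleidomastoid muscles. The tumors overlapped the aortas and the sternocleidomastoid muscles but lay above the quadriceps. It rose by 0.40 against muscle (adjusted p = 0.00834), which was 0.70 against quadriceps alone and 0.10 against sternocleidomastoid alone (adjusted p = 0.599), and with housekeeping centring 0.21 (adjusted p = 0.167). Against aorta the difference was 0.37 (adjusted p = 0.0514). It passed without tumor 3 (0.45, adjusted p = 0.0109) or tumor 5 (0.43, adjusted p = 0.0213). Ntn3 was lower against aorta (-0.30) and muscle (-0.24), calls lost without aorta 4 (adjusted p = 0.136) and without tumor 2 (adjusted p = 0.0512). The membrane-anchored Ntng1 and Ntng2 did not pass in either comparison. Ntng2 against muscle (-0.26, adjusted p = 0.0579) passed as lower without tumor 5, tumor 7 or quadriceps 4 (adjusted p = 0.0163, 0.0148 and 0.0217).

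The Unc5 receptors diverged by tissue. Unc5b, the endothelial member, measured 7.18 at the lowest, 7.79 at the median and 8.36 at the highest of the tumors, 6.23, 6.48, 6.36 and 6.33 in the aortas, 6.39, 6.23, 6.29 and 5.84 in the quadriceps and 5.83, 5.96, 6.13 and 5.90 in the sternocleidomastoid muscles. Every tumor lay above every normal sample, with differences of 1.44 ± 0.18 against aorta (2.7-fold, adjusted p = 3.8e-06) and 1.71 ± 0.15 against muscle (3.28-fold, adjusted p = 8.44e-09).

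Unc5c, a repulsive netrin receptor with a promoter printed above, measured 5.24 at the lowest, 5.45 at the median and 5.80 at the highest of the tumors, 6.65, 7.72, 7.0 and 7.29 in the aortas, 5.48, 5.26, 5.23 and 5.23 in the quadriceps and 5.31, 5.28, 5.23 and 4.87 in the sternocleidomastoid muscles. The aortas alone were raised, and tumors and muscles lay near the array median. It fell by 1.71 in tumors against aorta (3.28-fold, adjusted p = 6.62e-08) and was 1.93 ± 0.15 higher in aortas than in muscles (3.8-fold, adjusted p = 7.42e-09). The neuron marker list also had its highest group mean in the aortas, with Nefl and Nefm dim there. It was at 4.98, 5.97, 6.68 and 5.18 in aortas 1 to 4, against 4.93 to 5.57 in tumors. The Schwann cell list (5 of 8 genes measured) was at 6.85 to 7.08 in the aortas and 5.83 to 6.65 in the tumors. It was at 5.87 to 6.17 in the quadriceps and 6.04 to 6.84 in the sternocleidomastoid muscles. The part of these lists was not tested.

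Unc5a measured 5.33 at the lowest, 5.83 at the median and 6.42 at the highest of the tumors, 6.00, 6.18, 6.31 and 5.90 in the aortas, 7.71, 7.73, 7.68 and 7.64 in the quadriceps and 7.30, 7.01, 7.12 and 7.30 in the sternocleidomastoid muscles. All muscles lay above all tumors and aortas. Tumors were lower than muscle by 1.6 (3.02-fold, adjusted p = 2.26e-09), and aortas by 1.34 (adjusted p = 8.79e-07). Unc5d was dim in every group mean, and its call against aorta (-0.25, adjusted p = 0.0429) was lost in 14 alternatives, with adjusted p of 0.050009 to 0.245 without single tumors or aortas.

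Among the Slits, Slit2 measured 5.80 at the lowest, 6.57 at the median and 7.34 at the highest of the tumors, 6.03, 6.02, 6.04 and 5.87 in the aortas, 5.05, 5.43, 5.04 and 5.19 in the quadriceps and 5.45, 5.58, 5.26 and 5.38 in the sternocleidomastoid muscles. The tumors lay above the muscles and, apart from tumor 3, above the aortas. It rose by 1.26 against muscle (adjusted p = 2.84e-06) and by 0.56 against aorta (adjusted p = 0.037). The second call was lost without tumor 6, tumor 7 or any 1 of the 4 aortas (adjusted p = 0.0581 to 0.0952), and was 0.23 with tumors 1 to 4 alone and 1.0 with tumors 5 to 7 alone. Slit3 measured 8.71 at the lowest, 8.98 at the median and 10.12 at the highest of the tumors, 8.81, 8.94, 8.91 and 8.78 in the aortas, 7.78, 7.70, 7.88 and 8.55 in the quadriceps and 7.82, 7.92, 7.96 and 7.98 in the sternocleidomastoid muscles. Tumors and aortas overlapped, and both lay above the muscles: tumors by 1.22 (adjusted p = 7.82e-06) and aortas by 0.91 (adjusted p = 0.00199). Slit1 did not pass in either comparison.

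Slit2 and Slit3 each carry a gene of the microRNA miR-218 in an intron, which yields the same mature RNA. It is shown because Dicer, which cuts microRNA precursors, is the gene deleted in the tumors; the seed, bases 2 to 8, is in capitals. The 5p arm lies at chr5:48223966-48223986 in Slit2 and at chr11:35616840-35616860 in Slit3, plus strand, on GRCm38.p6 (RefSeq).
miR-218-5p: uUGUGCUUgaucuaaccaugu
The precursor probe sets were under the lowest array median in every group mean. Mir218-1 was at 4.67 ± 0.38 (SD) in tumors and 4.35 ± 0.26 in aortas, a difference of 0.32 (adjusted p = 0.227), and 0.60 higher in tumors than in muscle (adjusted p = 0.00343). Mir218-2 was at 4.5 ± 0.17 and 4.87 ± 0.24, lower in tumors than in aorta (adjusted p = 0.0323, and 0.0521 to 0.144 without tumor 2, 3 or 4 or aorta 1 or 4).

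Among the Robo receptors, Robo4, the endothelial member, rose most. It measured 7.90 at the lowest, 9.16 at the median and 10.45 at the highest of the tumors, 7.05, 7.04, 6.96 and 6.83 in the aortas, 7.03, 6.92, 6.71 and 6.86 in the quadriceps and 6.75, 6.88, 6.54 and 6.55 in the sternocleidomastoid muscles. Every tumor lay above every normal sample, with tumor 7 lowest and tumor 6 highest. The differences were 2.32 ± 0.31 against aorta (5-fold, adjusted p = 6.57e-06) and 2.51 ± 0.25 against muscle (5.7-fold, adjusted p = 6.58e-08).

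Robo1, a Slit receptor of neurons and many other cells, measured 6.43 at the lowest, 6.91 at the median and 7.84 at the highest of the tumors, 5.55, 5.81, 5.43 and 5.99 in the aortas, 6.32, 6.29, 5.76 and 6.25 in the quadriceps and 6.09, 6.01, 6.31 and 5.96 in the sternocleidomastoid muscles. The tumors lay above all normal samples, and the aorta mean was the lowest of the 4 group means. It rose by 1.35 against aorta (2.55-fold, adjusted p = 0.000215) and 0.92 against muscle (adjusted p = 0.000739). Robo2 and Robo3 were dim in every group mean. Robo2 was lower against aorta (-0.40) and muscle (-0.46); the first call was lost without tumor 1 or aorta 1, 2 or 3 (adjusted p = 0.0561 to 0.0833). Robo3 passed in neither comparison.

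**Figure D3:**
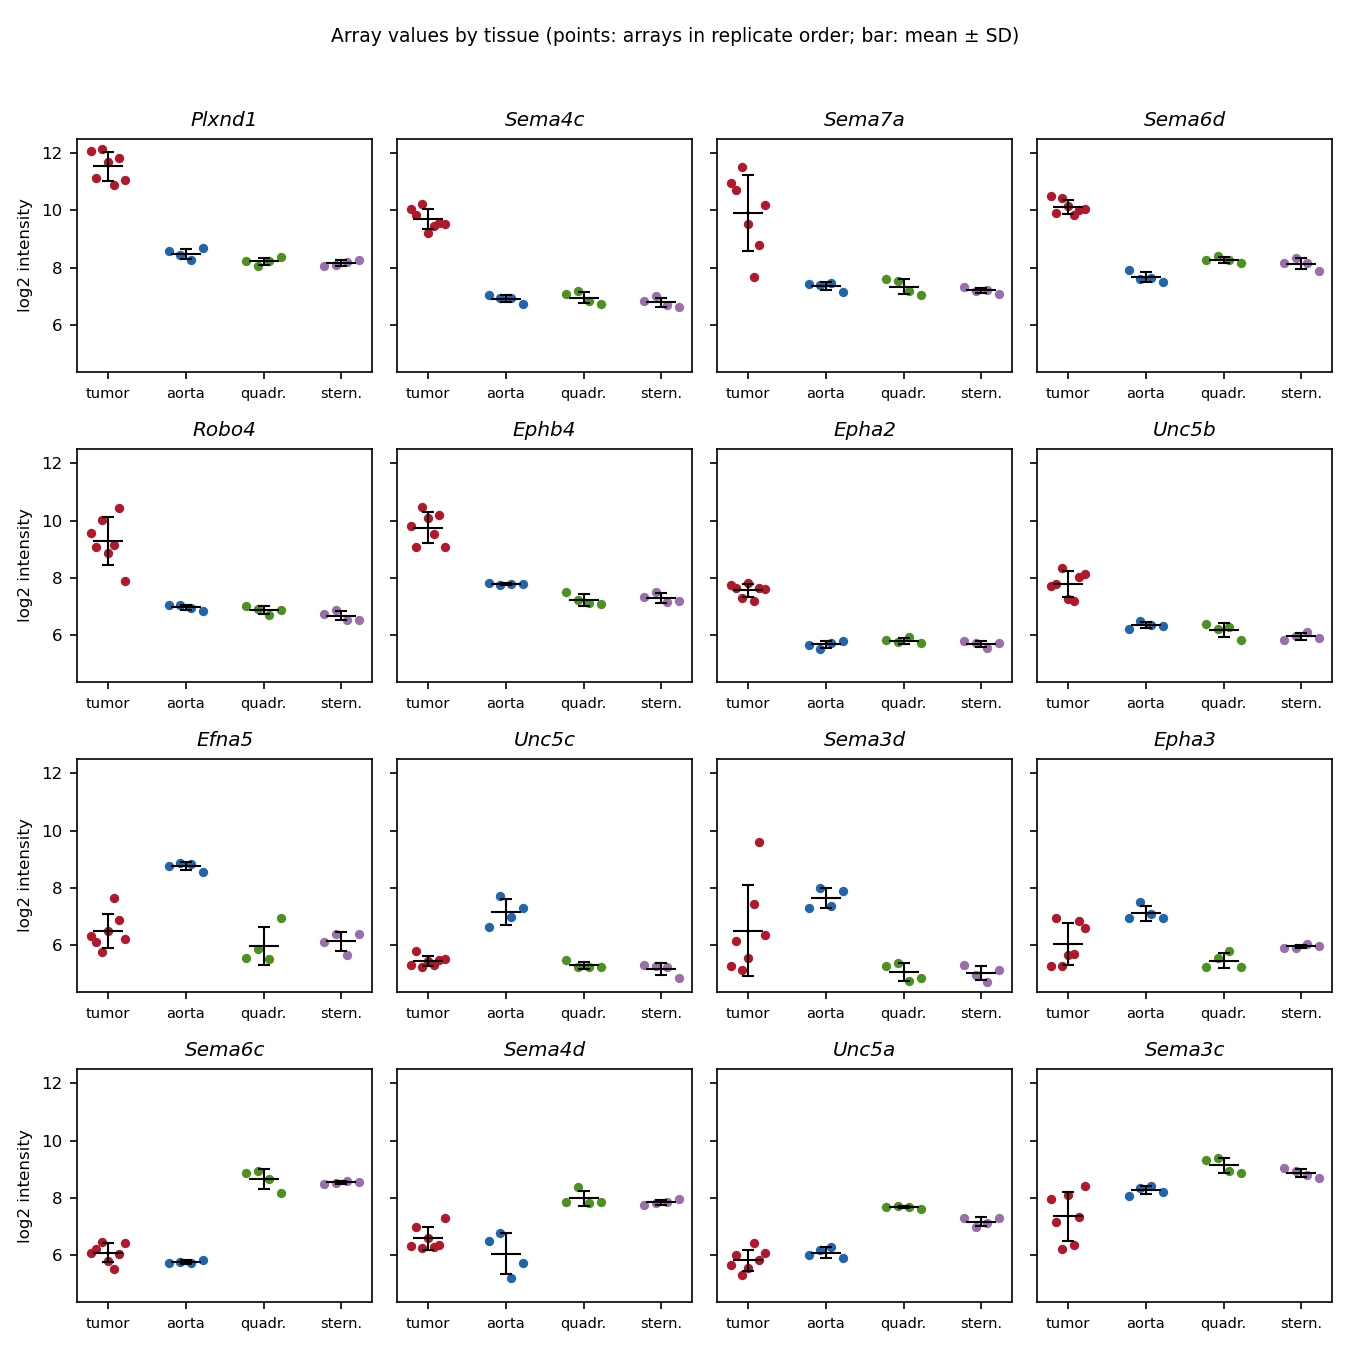
Log2 intensity of 16 members on each of the 19 arrays, 1 panel per gene and a common axis; points are arrays in replicate order, and the bars give the mean ± SD of each group. The upper 8 genes, such as Plxnd1 (tumors 10.88 to 12.14), are high in tumors, the next 4 in aortas and the last 4 in both muscles.

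Of the members, 8 rose more than the median endothelial marker against aorta (Plxnd1, Sema4c, Sema7a, Sema6d, Robo4, Ephb4, Epha2 and Sema6b) and 6 against muscle (Plxnd1, Sema4c, Sema7a, Sema3f, Robo4 and Ephb4). Macrophage markers (8 of 8 measured) and mitosis markers (7 of 7) rose in the tumors as well, against both tissues. Of 8 fibroblast markers 4 rose against each (medians 0.97 and 1.37), and of 8 smooth muscle markers 5 fell against aorta (median -0.80), while 6 rose and 2 fell against muscle (median 1.57). The part of these lists in the members' values was not tested. The highest group mean lay in the tumors for 36 members, in the aortas for 16, in the quadriceps for 11 and in the sternocleidomastoid muscles for 3. This was not counted over all genes, so these numbers have no background to stand beside.

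Between the normal tissues, 17 members were higher in aorta than in muscle and 5 lower (25 and 8 when only the arrays compared were fitted), where the background was 17% and 15.3% of all genes. Those higher were led by Efna5, Sema3d, Unc5c, Sema5a (1.68), Sema4b (1.43) and Epha3, and those lower by Sema6c, Sema4d (-1.87) and Unc5a. With the aortas and muscles fitted alone, the adjusted p of Efnb2 (0.88) went from 0.126 to 7.64e-08. That of Efna1 (-0.52) went from 0.0625 to 8.53e-05. The share of all genes called was not counted for that fit. The ranges did not overlap in 20 members higher and 6 lower, against 14.6% and 12.6% of all genes. Between the 2 muscles limma called no member at an adjusted p under 0.05, where 0.433% of all genes were called. At an unadjusted p under 0.05 there were 4 members, 6.06% of them, against 7.06% of all genes. The largest differences, sternocleidomastoid minus quadriceps, chosen after the values were seen, were 0.60 for Ntn4 (adjusted p = 0.191), -0.50 for Unc5a (adjusted p = 0.386) and 0.50 for Epha3 (adjusted p = 0.853). In each of these 3 the ranges of the muscles did not overlap. Over all members, 2 lay apart higher (3.03%) and 3 lower (4.55%), near the 4% and 3.6% of all genes. With the 8 muscles fitted alone, Unc5a was called lower. The brown adipocyte list was higher in sternocleidomastoid than in quadriceps by a median of 1.99, with 2 of its 8 genes called. Its part in these differences was not tested.

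The tumors differed among themselves more in these families than in the median gene: the median SD over the 7 tumors was 0.34 for the members and 0.21 for all genes, a description with no test. The members were also brighter, with a median level in tumors of 6.56 against 5.94 for all genes. The part of brightness in the SD was not tested. Tumor 7 was the highest tumor for 15 members and tumor 3 for 14, and tumor 3 was also the lowest for 15. No such count was made over all genes. Sema7a, Efnb2, Sema3g and Ephb1 all had their highest value in tumor 3, while Robo4, Sema3d, Slit3 and Sema5a had theirs in tumor 6. Ephb4 spanned 9.06 to 10.46 over the tumors where Efnb2 spanned 6.05 to 9.62, and tumor 6, the lowest for Efnb2, was at 10.21 for Ephb4. The endothelial list was highest in tumor 3 (11.01) and lowest in tumor 7 (10.05), and the skeletal muscle list was highest in tumor 2 (10.44). The brown adipocyte list was highest in tumors 4 and 5 (8.15 and 8.22), and the general adipocyte list in tumors 5 and 6 (10.83 and 10.22). The part of these lists in this spread was not tested.

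**Figure D4:**
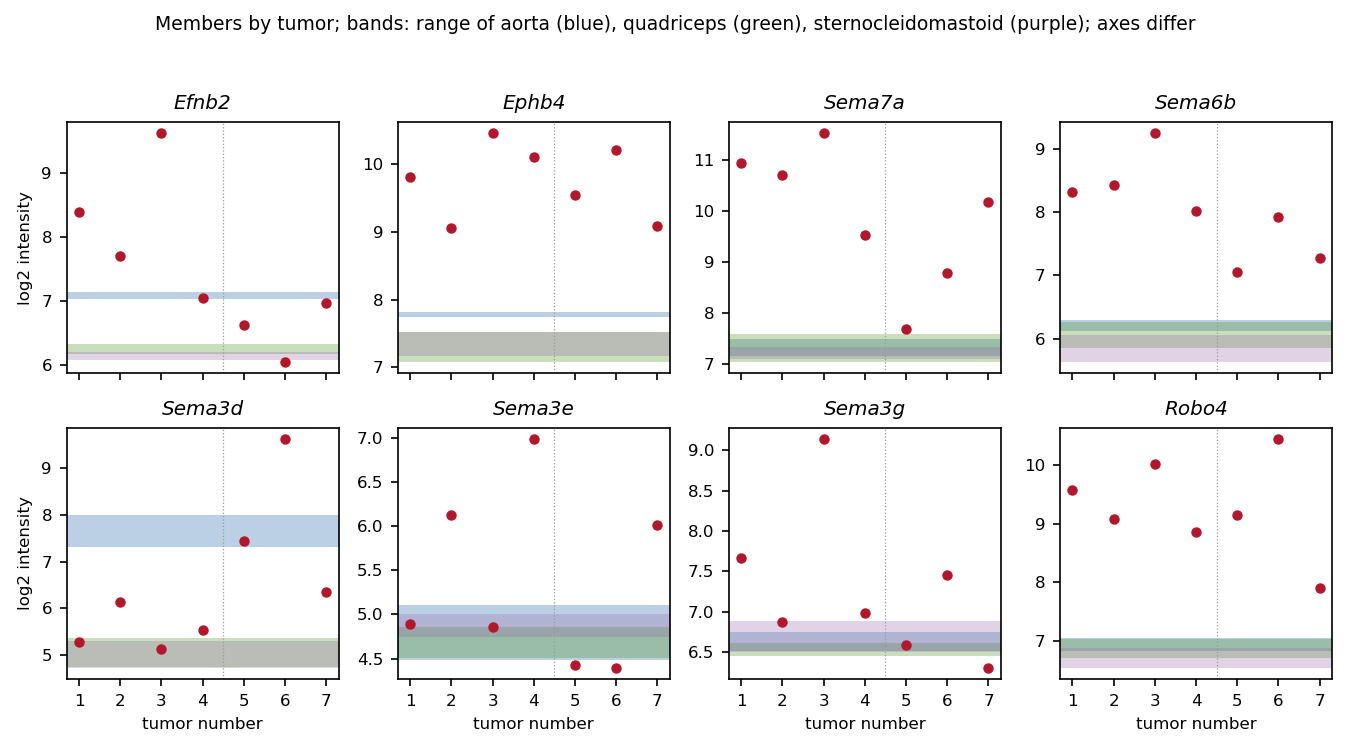
Log2 intensity of 8 members in tumors 1 to 7 (red points), with the range of the 4 aortas, 4 quadriceps and 4 sternocleidomastoid muscles as bands; each panel has its own axis, and the dotted line divides tumors 1 to 4 from tumors 5 to 7. Ephb4, Robo4 and Sema6b stand above every band in all 7 tumors, while Efnb2 runs from 9.62 in tumor 3 to 6.05 in tumor 6.

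The further genes of these pathways were counted from lists of co-receptors with other ligands (21 of 23 measured) and of signalling genes (39 of 40 measured). Of the co-receptors and ligands, 5 rose and 5 fell against aorta and 8 rose and 7 fell against muscle, with medians of 0.10 and 0.02. Of the signalling genes, 22 rose and 6 fell against aorta and 27 rose and 2 fell against muscle, with medians of 0.50 and 0.61. The background is again 18.6% of all genes higher and 17.5% lower against aorta, and 25.3% and 25.7% against muscle. The median over all genes was -0.02 and -0.04.

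Nrp2, the neuropilin that binds Sema3f, was at 9.48 ± 0.50 (mean ± SD) in tumors, 8.54 ± 0.03 in aortas, 6.6 ± 0.20 in quadriceps and 7.16 ± 0.35 in sternocleidomastoid muscles. It rose by 0.94 against aorta (adjusted p = 0.0016) and 2.60 relative to muscle (adjusted p = 2.68e-10). Nrp1, the neuropilin that binds Sema3a, stood at 9.57 ± 0.39 in tumors and 9.63 ± 0.09 in aortas, a difference that did not pass (-0.06, 95% interval -0.40 to 0.28), and was 1.20 above muscle (adjusted p = 2.43e-07).

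Of the netrin partners, Dcc was dim in all tissues (4.64 to 5.60 over the tumors). Its relative Neo1, a receptor for netrins and repulsive guidance molecules, fell by 0.90 against aorta (adjusted p = 0.000101) and 1.11 relative to muscle (adjusted p = 3.24e-07), to 7.83 ± 0.39 in tumors. With tumors 5 to 7 alone these were -0.53 and -0.74. Flrt2, a membrane ligand of Unc5 receptors, rose by 1.91 ± 0.27 against aorta (3.77-fold, adjusted p = 1.69e-05) and 1.97 ± 0.23 against muscle, with tumors at 7.04 to 9.24 and aortas at 6.21 to 6.76.

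Among the signalling genes, Srgap1 and Srgap2, GTPase-activating proteins that bind Robo, rose by 2.15 and 1.51 against aorta and by 2.21 and 1.58 against muscle, with adjusted p of at most 3.31e-07 in each. The kinases Fyn and Fes, which act below plexins, rose by 1.54 and 1.5 against aorta, and Sh2d3c, an adaptor of Eph receptors, rose by 1.81. Dpysl2, a collapsin response mediator, rose by 1.10 against aorta and 1.74 against muscle.

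**Figure D5:**
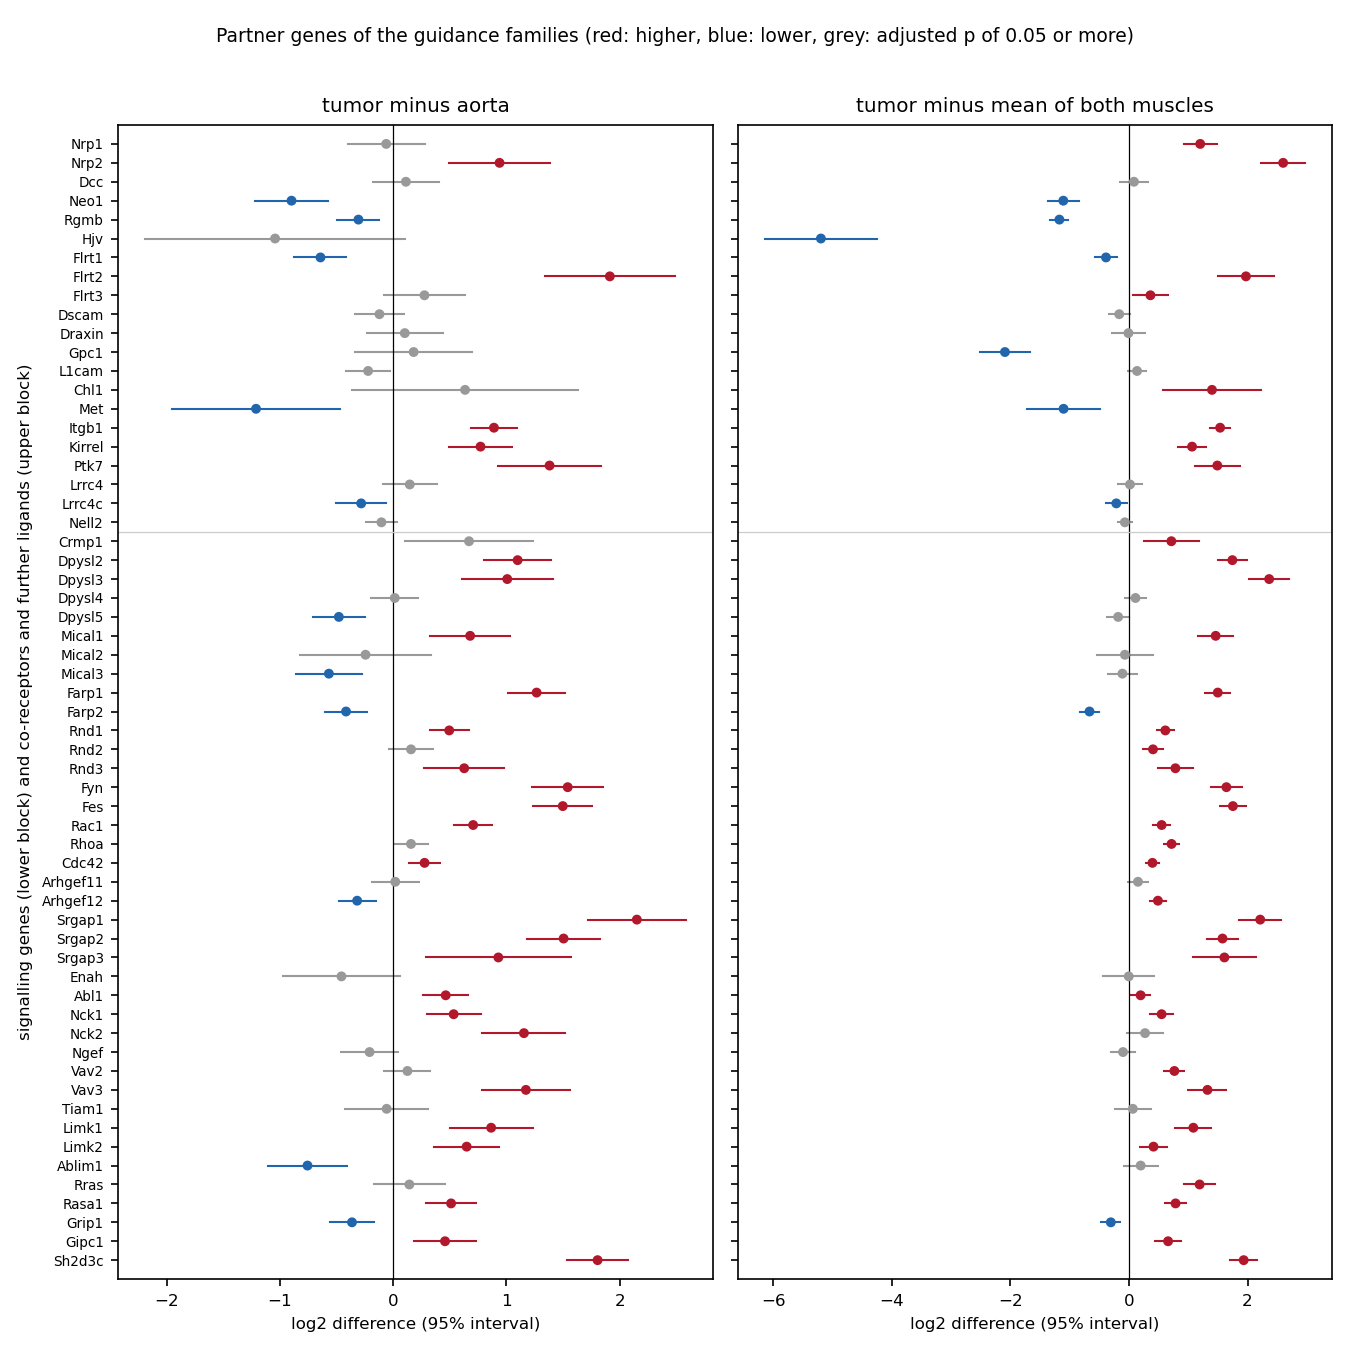
Log2 difference of 21 co-receptors and further ligands (upper block) and 39 signalling genes (lower block), tumor minus aorta on the left and tumor minus the mean of both muscles on the right, with 95% intervals from limma; red is higher, blue lower and grey not past an adjusted p of 0.05. Srgap1, Flrt2 and Sh2d3c lie to the right in both panels, and Neo1 to the left in both.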

How the data were processed

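Affymetrix arrays of 19 mouse samples were analysed. The authors deposited 1 table of log2 values per probe set; no label states the scale, which was read from the values (1.59 to 13.78, array medians 5.35 to 5.48). Partek 6.6 is named, per the submitters' processing notes, but what it did is not given in the sources used here, and neither are the normalization and genome build. Of 41345 probe sets, 23521 carried 1 gene symbol, 1814 several and 16010 none. Only the first were used, and where a gene had more than 1 (1082 genes), the brightest by its mean of all arrays was kept.

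One mean per group was fitted to all 22180 genes over the 19 arrays with limma 3.58.1 in R 4.3.3 (lmFit, contrasts and eBayes, two-sided), with Benjamini-Hochberg adjustment over all genes and a threshold of 0.05. All groups shared the same estimate of the spread per gene, so the spread among the tumors also entered the p-values between normal tissues. In turn, the spread of the normal tissues entered the p-values of the tumors. Where the normal samples varied less, those p-values came out smaller. For Sema7a, for example, the SD was 1.34 in the tumors and 0.14 in the aortas. Fold values are 2 to the power of the log2 difference. "Dim" means a group mean under 5.35, the lowest array median. Tables and plots used Python 3.11.15, pandas 2.3.3 and matplotlib 3.10.9, and the fit was tested on simulated data. Promoters, trimmed to the 250 bases before the start, and the microRNA came from RefSeq. Their build was not matched to the arrays. The number of arrays limits the precision, and no 2 arrays held identical values.

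Values are given, in each family, for up to 3 members that passed the threshold with the largest absolute difference in tumor versus aorta and in tumor versus muscle, for up to 2 in aorta versus muscle and between the muscles, and for a set list of 18 members and 7 partners. Other genes named were chosen after their values were seen. The members and all lists were chosen with earlier results of these data known. Alternatives changed the scaling (median gene, housekeeping genes, quantile), the rule for several probe sets, dim values, dim genes, the variance model, the arrays in the fit, the muscle, subsets of tumors and aortas, and left out each array in turn.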

Additional observations from a re-analysis of the deposited data

Results flagged for a closer look

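In 8 cases 1 array stood apart from the others of its group by Dixon's gap test at the 95% level. The test was run on 160 sets of arrays (40 genes in 4 groups), and chance marks about 5% of such sets, which is 1 in 20. Only Dcc, a netrin receptor, was marked in the tumors: tumor 3 was highest at 5.60, with the next tumor at 4.98. In the aortas, Nrp1 was lowest in aorta 2 at 9.50 (next 9.66), and Slit2 was lowest in aorta 4 at 5.87 (next 6.02). In the quadriceps, Epha4 was lowest in quadriceps 4 at 5.72 (next 6.01), Robo1 was lowest in quadriceps 3 at 5.76 (next 6.25), and Unc5c was highest in quadriceps 1 at 5.48 (next 5.26). In the sternocleidomastoid muscles, array 2 was lowest for Ephb1 at 5.45 (next 5.96) and for Plxnb2 at 7.23 (next 7.29). The gap for Plxnb2 is small beside its difference between tumors and muscle, 2.01.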

How the results depend on the processing

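Of the calls made, 22 of 33 against aorta, 32 of 45 against muscle and 18 of 22 between aorta and muscle were kept under every alternative tried. With each array left out in turn, 18 to 23 members were higher and 9 to 14 lower than aorta, 33 to 37 higher and 9 to 12 lower than muscle, 16 to 18 higher and 5 to 6 lower in aorta than in muscle, and 0 differed between the muscles. Centring on housekeeping genes gave 16 members lower than muscle in place of 9. Fitting the compared groups alone gave 25 members higher and 8 lower in aorta than in muscle in place of 17 and 5, and 1 lower in sternocleidomastoid muscle in place of 0. Between tumors and aortas that fit ended the calls of Sema3c, Plxna4, Ntn3, Unc5d and Slit2 (adjusted p = 0.0593 to 0.103). Shares of all genes called were not counted under any alternative. Of 75 differences of single genes, 53 kept direction and side of the threshold under every alternative that left a difference. The 6 that changed sign belonged to Dcc, Efnb2, Mir218-2, Nrp1 and Ntn1, and none of them passed the threshold with all arrays. Dcc against aorta (0.11) was -0.065 with housekeeping centring and -0.056 with tumors 5 to 7, and against muscle (0.08) -0.11 and -0.084; with single arrays left out the latter ran from -0.025 (without tumor 3) to 0.14. Efnb2 against aorta was -0.54 with tumors 5 to 7. Mir218-2 against muscle (-0.07) was 0.079 with tumors 5 to 7 and 0.043 against quadriceps alone. Nrp1 against aorta (-0.06) was 0.0024 without tumor 2, 0.039 with tumors 1 to 4, and with single arrays left out between -0.14 and 0.049 (without tumor 7). Ntn1 against muscle (-0.10) was 0.24 with tumors 5 to 7, passed as lower with tumors 1 to 4 (-0.35, adjusted p = 0.00877), and with single arrays left out between -0.19 and 0.0064 (without tumor 3). The cause was not tested. Raising values to the lowest array median gave no difference where all values lay under it, and the filter on dim genes left 14507 genes. No paired analysis was possible because the labels carry no replicate numbers. Signal limits the 10 members that were dim in every group. It also limits members dim in some groups only, such as Epha7, Sema3d and Sema3e. In all, 11 members were dim in the tumors, 14 in the aortas and 17 in each muscle. The number of arrays limits all members.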
